A study of Mus musculus with 10 samples.

Results

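The nuclear-encoded subunits of the mitochondrial respiratory chain were followed in mouse morulae with and without Jarid2. Members were taken by gene name: names starting with Ndufa, Ndufb, Ndufc, Ndufs, Ndufv, Uqcr, Cox4 to Cox8 or Atp5, and Sdha to Sdhd. A further 9 rows of the table that name Ndufaf assembly factors or pseudogenes were left out. The rule found 85 of the 35976 genes in the table, 36 of complex I, 4 of complex II, 8 of complex III, 20 of complex IV and 17 of complex V. Ndufa4 and Ndufa4l2 were counted with complex IV, where the NDUFA4 protein is now placed. Cyc1, the cytochrome c1 subunit of complex III, and Usmg5, a small ATP synthase subunit, do not match the name rule and are not among the 85. Atp5s and Atp5sl carry the name of the ATP synthase but are not counted among its structural subunits, and Cox7a2l assembles supercomplexes.

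The respiratory chain passes electrons from NADH (complex I) and succinate (complex II) through ubiquinone, complex III and cytochrome c to oxygen at complex IV, and the proton gradient built on the way drives the ATP synthase, complex V. Each of complexes I, III, IV and V joins core subunits that carry out the chemistry with many small subunits around them, and some core subunits are encoded by the mitochondrial genome itself. The morula is a compacting embryo before implantation, a stage at which mitochondria are inherited from the oocyte and oxidative metabolism is rising towards the blastocyst.

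Polyadenylated RNA came from morulae of the cross BDF1 x PWK. In 1 set each library was a single female embryo, 3 of them wild type, numbered 1 to 3, and 3 labelled Jarid2 knockout, numbered 1, 3 and 4. In the other set each library was a pool of about 20 embryos of unstated sex, 2 control and 2 Jarid2 knockout. JARID2 is a cofactor of the Polycomb complex PRC2, and the way its gene was deleted is not stated in the labels.

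Jarid2 itself was at 580.3, 686.0 and 775.6 CPM in wild-type embryos and at 156.1, 318.7 and 61.3 in knockout embryos, where CPM puts every library's counts on the same total. The log2 change was -1.92 (SE 0.43, edgeR adjusted p = 0.0342). In pools it was at 442.5 and 496.3 CPM in controls and 180.6 and 157.9 in knockouts, or -1.55 on the log2 scale (SE 0.18, edgeR adjusted p = 0.0794), so every knockout library was below every control of its set, with knockout embryo 3 keeping the highest level. Total counts were 14830332 to 18696312 in single embryos and 41003216 to 49861963 in pools. Reads carried no molecular identifiers, so these depths bound counting error only. Of the 8 morula markers (such as Pou5f1, Nanog and Krt8) all 8 were tested in both sets, with a summed level of 1561.0 to 2573.4 CPM in single embryos and 1122.8 to 1667.1 in pools. Summed markers of cumulus cells and of blood stayed at or under 0.9 CPM in every library, and those of sperm at or under 5.1. The 8 oocyte markers summed to 36.7 to 164.2 CPM in single embryos and 61.6 to 74.4 in pools, nearly all of it from Zp3. The 8 markers of the 2-cell stage summed to 0.5 to 1.7 CPM in wild-type and 3.4 to 15.9 in knockout single embryos, and only Tdpoz2 passed the filter on low counts, at 0.1, 0.6 and 0.1 against 15.3, 1.0 and 3.0 CPM (4.64, SE 1.24, edgeR adjusted p = 0.0605). Zscan4c, Zscan4d and Zscan4f were at 0.0 in all wild-type embryos and at or under 2.2 in knockout embryos. Their part in the results below was not tested. In a library of whole embryos, fewer cells of a kind and less RNA per cell cannot be told apart.

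The 85 genes held 2.98% to 3.36% of all counts in single embryos and 3.75% to 3.96% in pools. Per kilobase of transcript, the most abundant member of each complex was Ndufa3 in complex I (1123.9 CPM per kb, mean of the 10 libraries), Sdhb in complex II (353.9), Uqcr10 in complex III (2350.6), Cox6c in complex IV (3261.3) and Atp5j in complex V (1353.9). On that scale the small subunits of complexes III and IV led the set, and the catalytic flavoprotein of complex II, Sdha, was at 32.9. The 13 protein-coding genes of the mitochondrial genome were listed with 0 counts in all libraries, so the partners they encode could not be set beside the nuclear subunits. Cox8b had no count in any library, Cox6a2 had 15, 4 and 8 counts in 3 libraries, and Ndufa4l2 had 4, 2 and 4 counts in 3 pools. These 3 genes fell under the filter on low counts, and the other 82 members were tested in each set.

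Summed by complex, complexes IV and V separated the single-embryo groups in CPM, in opposite directions, and only complex V did so on TMM-scaled libraries. Complex IV summed to 12100, 8989 and 10936 CPM in wild-type and 8204, 8154 and 7735 in knockout embryos, so every knockout embryo was below every wild type. On TMM-scaled library sizes complex IV overlapped, at 11827, 8648 and 11089 against 8871, 7651 and 7997. Complex V summed to 6945, 7778 and 7613 CPM in wild-type and 8486, 8909 and 9778 in knockout embryos, with every knockout embryo above on either scale. Complexes I (9814 ± 631 against 9615 ± 364 CPM, SD, n = 3 each), II (675 ± 73 against 721 ± 125) and III (3517 ± 262 against 3545 ± 151) overlapped between genotypes. No test was made on these sums over members, and with 3 against 3 libraries an exact permutation test cannot go below a two-sided p of 0.1. In pools complex IV held 10559 and 11748 CPM in controls and 10820 and 12369 in knockouts, and complex V 9504 and 8727 against 9289 and 9029. Neither complex separated the pools. Complex I was higher in both knockout pools in CPM (12171 and 12028 against 12194 and 13200) but not on TMM-scaled libraries (12806 and 12153 against 12339 and 12271).

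**Figure D1:**
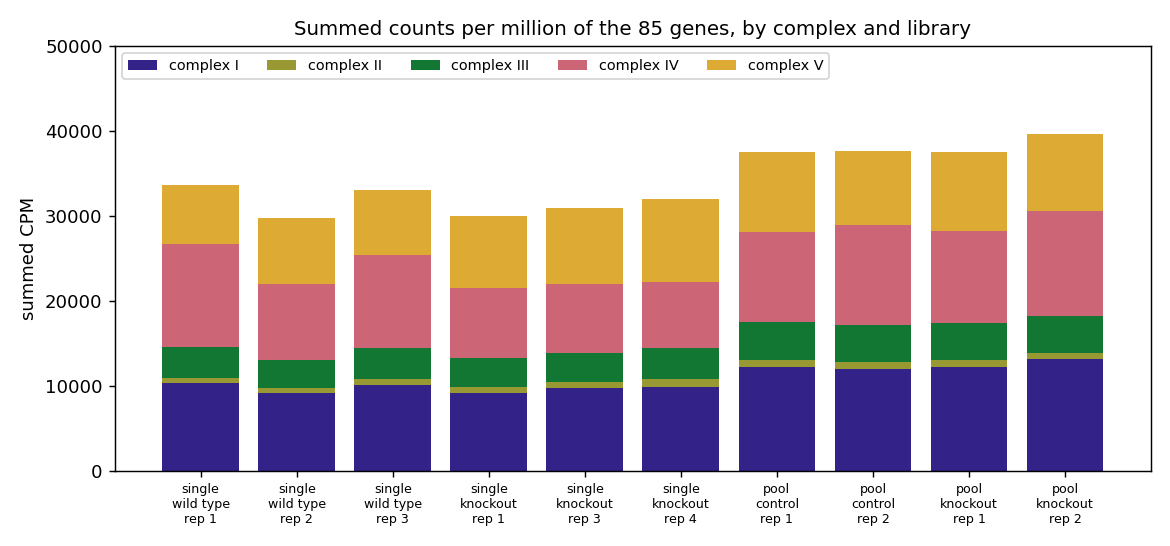
Stacked bars give the summed CPM of the 85 genes in each of the 10 libraries, by complex. Complex IV is the thicker band in the wild-type single embryos (8989 to 12100 CPM) and complex V is thicker in the knockout single embryos (8486 to 9778 CPM), with no such shift of these 2 complexes in the pools.

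Known promoter motifs were searched for around the starts of the members. The NRF1, ETS-family (GABP) and YY1 factors are the classical regulators of nuclear respiratory genes. In the RefSeq windows of GRCm38.p6, 250 bases before to 50 after the start, 70 of the 85 members matched. The NRF1 palindrome, the letters GCATGCGC with GC before them, was searched like the others on both strands and was in 5 members (7.14%) and in 1.07% of 27025 genes. Its core GCATGCGC alone, which the palindrome contains, was in 10 members (14.3% against 3.05%). The ETS letters CCGGAAG were in 16 members (22.9% against 9.93%) and the YY1 letters AAGATGGCG in 8 (11.4% against 1.64%). In all, 28 members (40.0%) held at least 1 of these runs against 13.6% of all genes; the runs are matches of letters, not sites shown to be bound. The stretches below end at or before the RefSeq start of 6 members and read 5′ to 3′ on the gene's strand. The GENCODE starts of Atp5h, Cox6a1 and Cox6b1 lie inside their stretches, before the ETS run. By GENCODE the run is thus within these 3 genes. The first 4 are shown for an ETS run in genes whose groups were apart in CPM. Their knockout embryos lay above (Atp5h) or below (Cox6a1, Cox6b1, Uqcr11) the wild type. Among all members with the ETS run, 5 were higher and 3 lower without overlap, and of those higher only Atp5h is shown. The stretches of Atp5l and Ndufa11, whose groups overlapped, are shown for their NRF1 letters. Outside the stretches printed, the window of Cox6a1 also holds the NRF1 palindrome and that of Uqcr11 the NRF1 core. Capitals mark the ETS run (CCGGAAG or its reverse complement CTTCCGG) or the NRF1 core or palindrome.
Atp5h (chr11:115419939-115419998, minus strand, ETS): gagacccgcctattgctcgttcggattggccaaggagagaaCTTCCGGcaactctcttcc
Cox6a1 (chr5:115348959-115349018, minus strand, ETS): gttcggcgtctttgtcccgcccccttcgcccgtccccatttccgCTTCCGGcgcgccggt
Cox6b1 (chr7:30626124-30626183, minus strand, ETS): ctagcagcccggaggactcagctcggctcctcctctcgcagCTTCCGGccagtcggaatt
Uqcr11 (chr10:80406869-80406928, minus strand, ETS): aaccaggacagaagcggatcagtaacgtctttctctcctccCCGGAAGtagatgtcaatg
Atp5l (chr9:44920936-44920992, minus strand, ETS and NRF1 core): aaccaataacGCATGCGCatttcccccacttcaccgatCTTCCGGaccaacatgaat
Ndufa11 (chr17:56717664-56717723, plus strand, NRF1 palindrome): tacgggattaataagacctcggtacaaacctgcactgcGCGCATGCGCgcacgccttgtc

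In single embryos the core subunits of complexes I and III and the catalytic head of the ATP synthase tended to higher levels in the knockout, and the small subunits of complex IV to lower ones. A single member passed the test across all genes, Uqcrc2, a core protein of complex III, which rose. Of 82 members tested 1 was called (1.22%), against a background of 605 of 13830 genes (4.37%; 1.16% higher and 3.21% lower) by edgeR's quasi-likelihood test at a Benjamini-Hochberg adjusted p of 0.05. At an unadjusted p under 0.05, 15 members were higher (18.3%, against 10.4% of all genes) and 5 lower (6.10%, against 12.2%), together 24.4% against 22.6%. In CPM, as for every member below, the groups did not overlap for 29 members (35.4%, against 27.9% of all genes). Of these, 15 had all knockout embryos higher (18.3%, against 12.6%) and 14 had all lower (17.1%, against 15.3%). On TMM-scaled library sizes some of these groups overlapped, Sdha and Cox6b1 among them. The median log2 change was -0.01 over the members and -0.03 over all genes tested. Under DESeq2 11 members were called higher and 3 lower, against 951 and 1006 of 10334 genes.

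Within complex I the 7 nuclear core subunits, which hold the flavin and iron-sulfur clusters, all had a log2 change above 0 (median 0.48). Ndufs7, which lies close to the quinone site (chr10:80249121-80256794 in GRCm38, as all positions here), was at 333.4, 382.3 and 341.6 CPM in wild-type and 501.2, 531.2 and 538.9 in knockout embryos. All 3 knockout embryos were above all wild types, by 0.62 on the log2 scale (SE 0.16, edgeR adjusted p = 0.058). Ndufs8, another iron-sulfur subunit, was at 140.8, 175.1 and 167.0 CPM against 260.5, 215.3 and 247.2 (0.64, SE 0.20, edgeR adjusted p = 0.0912). Ndufs3 (0.58) and Ndufv1 (0.48), the flavin-binding subunit, were likewise without overlap. Ndufs1 (0.22) and Ndufv2 (0.28) overlapped between genotypes. None of the 7 passed the adjusted threshold.

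The accessory subunits of complex I, which surround that core, did not share its direction. Among the 12 Ndufb and Ndufc genes, which encode parts of the membrane arm, 9 were below 0 (median -0.20), and the 4 accessory Ndufs and Ndufv genes were all below 0 (median -0.23). The 13 Ndufa genes of complex I were divided, 7 above and 6 below 0 (median 0.05). Ndufa9 was at 207.4, 258.8 and 272.5 CPM in wild-type and 448.5, 305.6 and 449.5 in knockout embryos (0.76, SE 0.23, edgeR adjusted p = 0.0809), without overlap, and Ndufa10 had a log2 change of 0.66. Ndufa1, a short membrane subunit encoded on the X chromosome, went the other way, at 320.2, 224.6 and 274.2 CPM against 168.8, 218.3 and 182.9 (-0.49, SE 0.19, edgeR adjusted p = 0.167). Ndufb2 (0.59) and Ndufb7 (0.43) stood against most of their row, each with all knockout embryos higher. The ratio of summed core counts to summed Ndufb and Ndufc counts within a library was 0.314, 0.420 and 0.368 in wild-type and 0.539, 0.493 and 0.544 in knockout embryos.

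Complex II, which has no subunit of the mitochondrial genome, showed no common direction. Sdhb, its iron-sulfur protein, had a log2 change of 0.33 (SE 0.24), Sdha -0.20 (SE 0.21), and the membrane anchors Sdhc and Sdhd -0.05 and 0.09. Only Sdha of the 4 was without overlap between genotypes in CPM, at 108.4, 129.5 and 114.0 in wild-type and 98.5, 91.8 and 104.7 in knockout embryos. On TMM-scaled library sizes Sdha overlapped as well.

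In complex III Uqcrc2 (chr7:120635176-120659524) rose. It was at 91.8, 157.4 and 120.5 CPM in wild-type and 260.3, 184.7 and 289.8 in knockout embryos, 123.2 ± 32.9 against 245.0 ± 54.2 CPM (SD, n = 3 each), or 1.05 on the log2 scale (SE 0.26, edgeR adjusted p = 0.0494). The groups did not overlap, and knockout replicate 3 lay closest to the wild type. The call was lost when wild-type replicate 1 (adjusted p = 0.190), wild-type replicate 3 (0.137), knockout replicate 1 (0.156) or knockout replicate 4 (0.193) was left out, and with transcript length and GC content corrected (0.082). Over the alternatives the adjusted p ran from 0.000396 to 0.281 and the log2 change from 0.72 to 1.26. Uqcrc2 overlaps Pdzd9 on the opposite strand and 23.8% of the 75-base windows of its transcript occur in another gene, and the labels do not say how strand was handled, which leaves its value uncertain to that extent. Its partner core protein Uqcrc1 was at 319.8, 460.4 and 362.9 CPM against 487.5, 518.4 and 726.4 (0.65, SE 0.22, edgeR adjusted p = 0.105), again without overlap, and the Rieske iron-sulfur protein Uqcrfs1 had a log2 change of 0.30. The 5 small subunits, Uqcr10, Uqcr11, Uqcrb, Uqcrh and Uqcrq, were all below 0 (median -0.14, range -0.38 to -0.01). The ratio of core to small subunit counts was 0.228, 0.366 and 0.268 in wild-type and 0.431, 0.427 and 0.572 in knockout embryos.

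Complex IV, whose catalytic core is mitochondrially encoded, was represented by its nuclear regulatory shell, and 10 of the 11 broadly expressed members were below 0 (median -0.36). Cox7b (chrX:106015700-106022450) was at 609.9, 439.4 and 562.5 CPM in wild-type and 225.4, 324.3 and 354.5 in knockout embryos (-0.80, SE 0.21, edgeR adjusted p = 0.0584). Cox6a1 (chr5:115345642-115348981), whose promoter stretch is printed above, was at 1435.5, 925.3 and 1250.4 CPM against 706.0, 675.8 and 771.3 (-0.70, SE 0.20, edgeR adjusted p = 0.0692). Neither gene overlapped between genotypes and neither passed the threshold. Cox7c was at 1122.0, 786.0 and 1038.7 CPM against 655.7, 569.4 and 547.7 (-0.68, SE 0.20, edgeR adjusted p = 0.071), and 50.4% of its 75-base windows occur in other genes. Cox7a2 (-0.46), Cox6b1 (-0.39) and Cox4i1 (-0.32), the largest nuclear subunit, were also lower in every knockout embryo in CPM. On TMM-scaled library sizes Cox6b1 overlapped. Cox5a, which sits on the matrix side, had a log2 change of 0.02. In each of Cox7b, Cox6a1 and Cox7c wild-type replicate 2 was the lowest wild type. Leaving out that lowest replicate widens these differences by construction; the 3 genes then passed the test (log2 change -0.94, -0.87 and -0.83; edgeR adjusted p = 0.0479, 0.0387 and 0.0479), which is no support for a fall. Over the alternatives their adjusted p ran from 0.0081 to 0.212, 0.0194 to 0.251 and 0.0201 to 0.349.

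In complex V the 5 subunits of the F1 part, the catalytic head and its central stalk, were all above 0 (median 0.38), as were the 4 of the peripheral stalk that holds the head still (median 0.37). Atp5a1, the alpha subunit, was at 631.9, 972.5 and 769.3 CPM in wild-type and 1119.6, 1134.1 and 1383.5 in knockout embryos (0.67, SE 0.19, edgeR adjusted p = 0.0749). Atp5b, the catalytic beta subunit (chr10:128083273-128090391), was at 1107.8, 1532.9 and 1241.8 CPM against 1765.0, 1606.1 and 1966.8 (0.51, SE 0.18, edgeR adjusted p = 0.119). Both were higher in every knockout embryo, as was Atp5h of the peripheral stalk (0.44). The central stalk subunits Atp5c1, Atp5d and Atp5e had log2 changes of 0.38, 0.35 and 0.05. The membrane ring subunit c, made from 3 genes, differed less: Atp5g1 0.14, Atp5g2 0.01 and Atp5g3 0.12, all overlapping between genotypes. All 75-base windows of Atp5g2 and 59.6% of those of Atp5g1 occur in other genes, so the share of each subunit c gene is uncertain. Of the small membrane subunits Atp5j2 was lower in every knockout embryo (416.3, 359.0 and 439.2 against 304.9, 350.7 and 320.7 CPM; -0.27), and Atp5l (-0.10) and Atp5k (0.10) overlapped. For Atp5l 76.0% of the windows are shared, largely with pseudogenes. The ratio of F1 to complex IV broad subunit counts within a library, which no scaling between libraries can move, was 0.238, 0.436 and 0.305 in wild-type and 0.528, 0.528 and 0.647 in knockout embryos. In this ratio and those of complexes I and III, the groups on top had medians above 0 and those underneath medians below 0. Their separation thus follows from the choice of groups and adds no support.

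**Figure D2:**
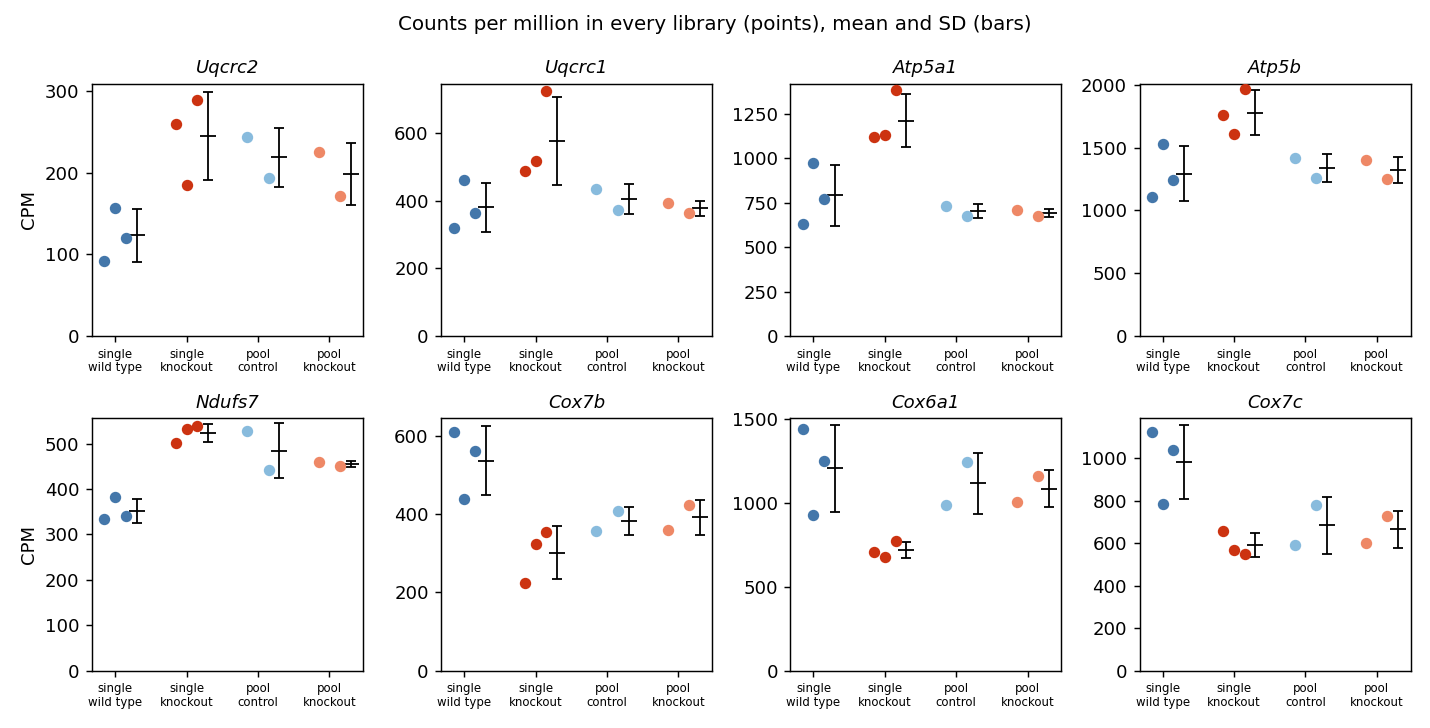
Each panel plots the CPM of a gene in every library as points, with the group mean and SD beside them (n = 3 single embryos or 2 pools per group). Uqcrc2, Uqcrc1, Atp5a1, Atp5b and Ndufs7 are higher and Cox7b, Cox6a1 and Cox7c lower in all knockout single embryos, while the pools of both genotypes lie at like levels.

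**Figure D3:**
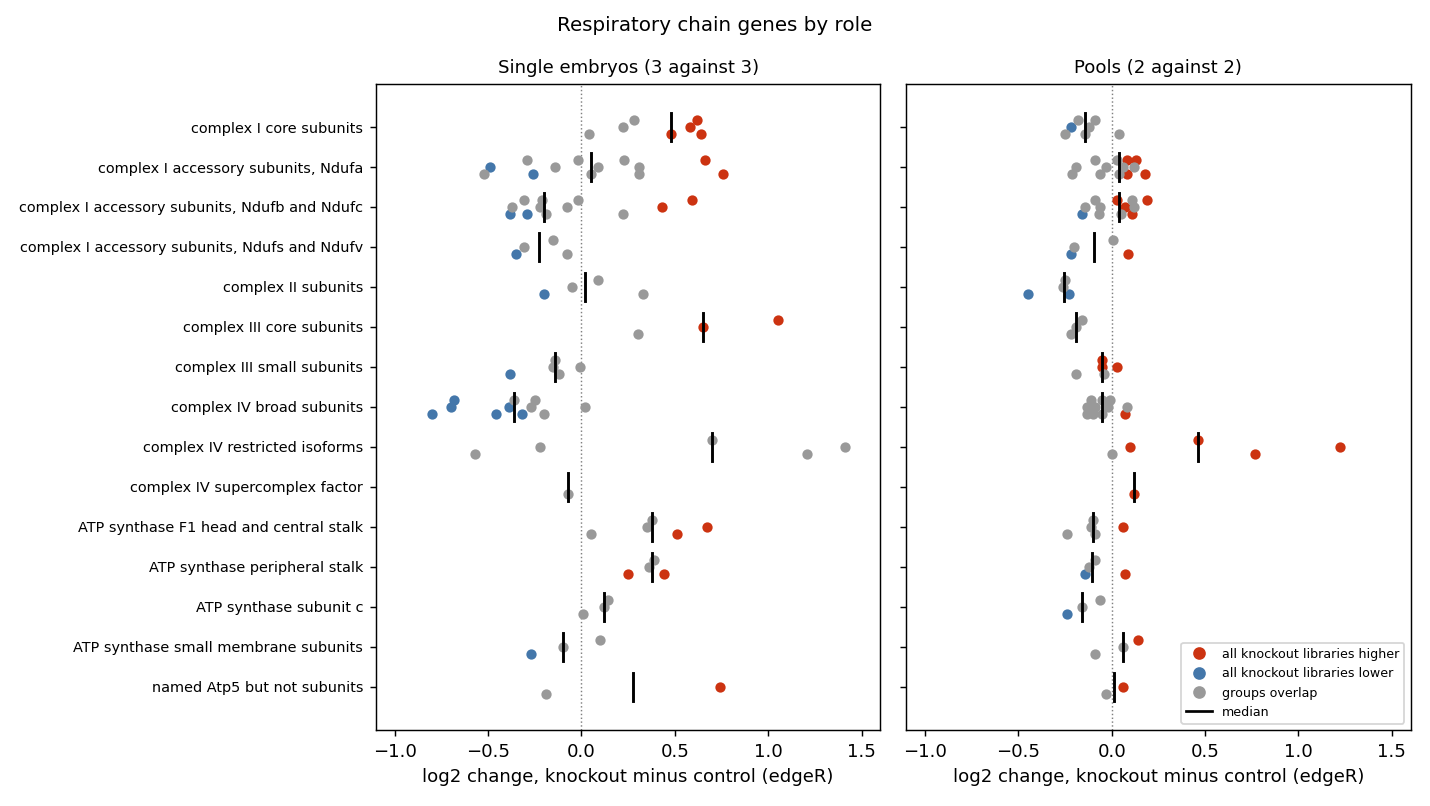
Points give the edgeR log2 change (knockout minus control) of each of the 82 tested genes, by role, in single embryos on the left and pools on the right, and black lines are medians. In single embryos the core rows of complexes I (0.48) and III (0.65) lie right of 0 and the broad subunits of complex IV (-0.36) left of 0. In pools the medians of those 3 rows are -0.14, -0.19 and -0.05.

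The pools did not show this division. None of 82 members was called, as none of 16259 genes was by edgeR (0.0%), and at an unadjusted p under 0.05 there were 2 members higher (2.44%, against 4.26% of all genes) and 0 lower (against 2.34%), together 2.44% against 6.6%. DESeq2 called 64 higher and 7 lower genes in the pools, with no member among them. Groups did not overlap for 29 members (35.4%), the share found over all genes (35.4%). Of the members tested, 22 were higher (26.8%, against 24.3%) and 7 lower (8.54%, against 11.1%). These counts rest on CPM without TMM scaling. Uqcr10 and Uqcrh counted as higher, though the log2 change of each was -0.05 in the TMM-scaled fit. Uqcrc2 was at 244.7 and 193.8 CPM in control and 225.8 and 171.9 in knockout pools, a log2 change of -0.22 (SE 0.21). Cox7b was at 357.6 and 407.1 against 360.0 and 424.2 CPM (-0.05, SE 0.16), and Ndufs7 at 527.0 and 441.4 against 460.1 and 451.3 (-0.18, SE 0.18). All 4 complex II genes lay below 0 in pools (median -0.26), with Sdhd at 140.4 and 123.1 against 120.2 and 83.3 CPM (-0.45, SE 0.22, edgeR adjusted p = 0.787). The medians were -0.14 for the complex I core, -0.19 for the complex III core, -0.10 for F1 and -0.05 for the broad subunits of complex IV. The F1 to complex IV ratio was 0.349 and 0.281 in control and 0.328 and 0.270 in knockout pools. The ratio of complex III core to small subunits was lower in both knockout pools (0.266 and 0.251 against 0.244 and 0.234). That of the complex I core to the Ndufb and Ndufc genes overlapped (0.440 and 0.381 against 0.399 and 0.346). Whether pools came from separate litters is not given, so these p-values measure only the spread between pools, which may be technical. The titles of the single embryos give no litters either, so litter and genotype cannot be told apart there.

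**Figure D4:**
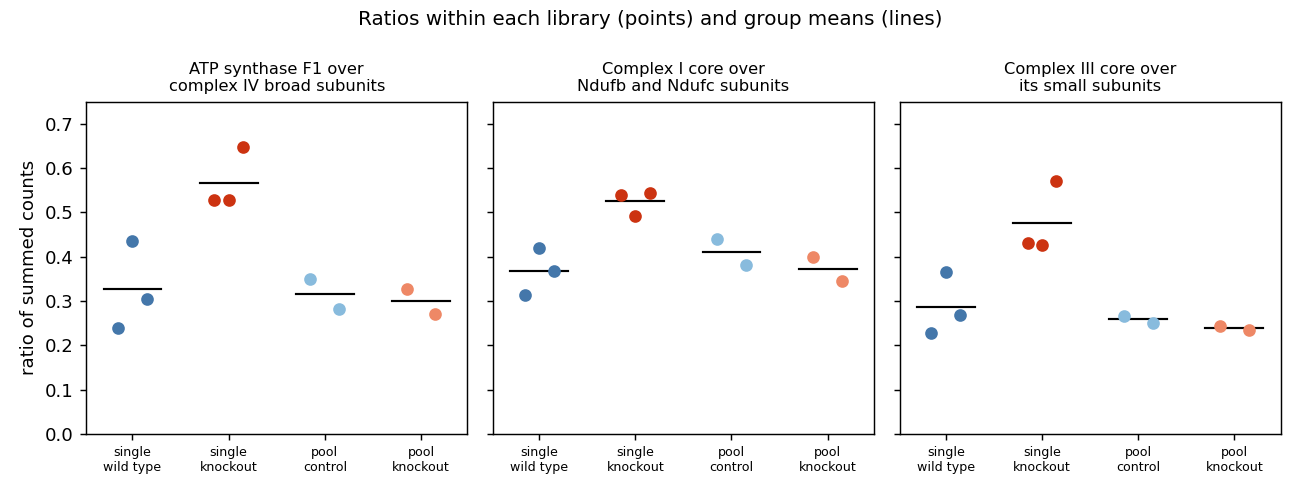
Points are the ratios of summed counts within each library and lines the group means. The knockout single embryos (0.528 to 0.647, 0.493 to 0.544 and 0.427 to 0.572) lie above the wild types in all 3 panels. The groups set over each other had medians of opposite sign in single embryos. The pools of both genotypes lie between 0.234 and 0.440. In the complex III panel both knockout pools (0.244 and 0.234) lie below both controls (0.266 and 0.251).

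Whether the knockout effect differed between single embryos and pools was tested in a fit over all 10 libraries. No member passed (0 of 82), against 1 of 15878 genes (0.0063%). At an unadjusted p under 0.05 the effect was more positive in single embryos for 12 members (14.6%, against 8.1% of all genes) and more negative for 1 (1.22%, against 6.55%), Cox7b, together 15.9% against 14.6%. Uqcrc2 differed by 1.3 (SE 0.40, edgeR adjusted p = 0.235), Ndufs7 by 0.82 (SE 0.23, adjusted p = 0.235), Atp5a1 by 0.80 (SE 0.28, adjusted p = 0.248) and Cox7b by -0.72 (SE 0.30, adjusted p = 0.302). The sets also differ in embryos per library, in depth and possibly in sex, which cannot be told apart from one another here.

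Among the tissue-restricted isoforms of complex IV, Cox6b2, the testis form of Cox6b, was the member with the smallest p in pools. It was at 14.3 and 13.5 CPM in control and 19.2 and 31.6 in knockout pools (0.77, SE 0.24, edgeR adjusted p = 0.585). In single embryos it was at 15.2, 20.3 and 13.5 CPM against 34.1, 24.5 and 17.9 (0.70, SE 0.36, edgeR adjusted p = 0.274), and these groups overlapped. As a share of the counts of its broad partner Cox6b1, not corrected for length, Cox6b2 stood at 1.53%, 2.56% and 1.47% in wild-type and 4.54%, 4.09% and 2.83% in knockout embryos, and at 1.52% and 1.3% in control and 2.06% and 3.02% in knockout pools. The share was thus higher in every knockout library of both sets, while in single embryos Cox6b1 itself was lower (996.9, 794.0 and 916.2 against 752.1, 599.3 and 631.9 CPM). Cox8c, another testis form, had 38 and 48 counts in control and 65 and 144 in knockout pools (1.22, SE 0.51, edgeR adjusted p = 0.719). Cox7b2 was at 7.5 and 6.6 against 9.2 and 11.5 CPM in pools, and 2 of 6 single embryos had no count of it, which at 3 counts allows up to 0.173 CPM in wild-type replicate 3 and 0.166 in knockout replicate 4. Cox7a1, the heart and muscle form, held 3.31% to 8.49% of the counts of Cox7a2 in all libraries with no separation of single-embryo groups, and Cox4i2, the lung form induced by low oxygen, was at 0.5 to 3.6 CPM.

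Protein length followed the division between core and small subunits. The 22 tested members with a protein of at least 200 residues had a median log2 change of 0.43 in single embryos, 19 of them above 0, and the 60 shorter ones -0.14, with 39 below 0. Over all coding genes tested the order was the opposite, -0.09 for 10301 genes of at least 200 residues and 0.24 for 1648 shorter ones. Across the 82 members Spearman's rho between protein length and log2 change was 0.49 in single embryos and -0.48 in pools; across all coding genes it was -0.28 (n = 11949) and 0.17 (n = 13362). These correlations are across genes that share the same libraries and are descriptions only. The split at 200 residues was set with the values known. A hydrophobic segment of the kind that crosses a membrane (19 residues with a mean Kyte-Doolittle value of at least 1.6) was found in 25 members, 22 of them tested, with a median of -0.23 in single embryos against 0.07 for the 60 without one. Of all coding genes in that set, those with such a segment had a median of -0.50 and those without 0.14. The rule does not separate membrane from soluble subunits, as the membrane anchor Sdhd had no segment by it. With transcript length and GC content corrected in each library, an alternative added with the data in view, the 22 long members had a median of 0.15 and the short ones -0.30. Under the same correction the complex I core stood at 0.34, the complex III core at 0.61, F1 at 0.25 and the broad complex IV subunits at -0.64.

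**Figure D5:**
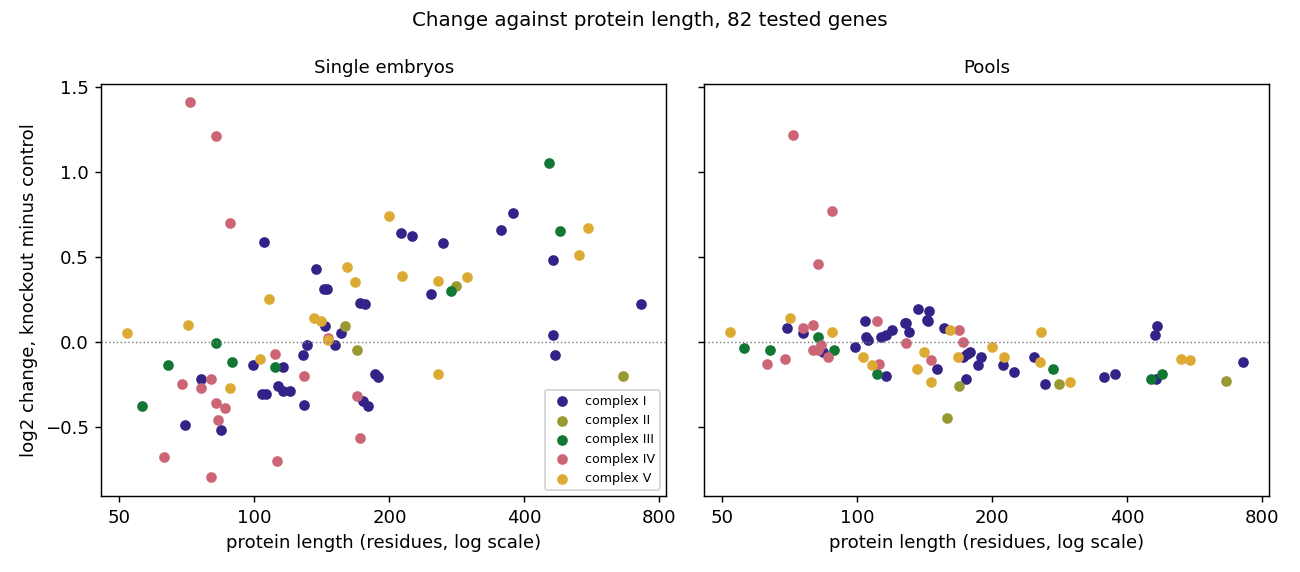
Each point is a tested gene, with protein length in residues on a log axis and the edgeR log2 change (knockout minus control) on the vertical axis, coloured by complex. In single embryos genes of at least 200 residues lie mostly above 0 (19 of 22), and in pools mostly below (19 of 22).

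Members with the promoter runs were found in both directions, and a part of the runs in the changes was not tested. The 16 members with the ETS run had a median log2 change of 0.07 in single embryos and the 53 tested members with a window but without it -0.02. In CPM, 5 of the 16 were without overlap and higher, such as Atp5h, and 3 were without overlap and lower, Cox6a1, Cox6b1 and Uqcr11. Of the 53, 8 were higher and 9 lower without overlap, and over all genes the shares were 12.6% and 15.3%. For the YY1 run the medians were -0.17 (8 members) and 0.02 (61), with 3 higher and 2 lower without overlap against 10 and 10. For the NRF1 core they were 0.06 (10) and -0.02 (59), with 1 higher and 2 lower against 12 and 10.

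Other genes of oxidative metabolism were taken from lists. In single embryos Slc25a5, an adenine nucleotide carrier that exchanges ADP for ATP across the inner membrane, rose from 593.2, 739.4 and 658.9 to 1276.9, 984.0 and 1240.4 CPM (0.87, SE 0.19, edgeR adjusted p = 0.0315), the only call among 7 genes of ATP synthase inhibition and metabolite exchange (median 0.54). Idh3g, a subunit of the isocitrate dehydrogenase of the citric acid cycle, rose from 210.9, 338.8 and 323.4 to 612.6, 445.3 and 691.3 CPM (1.06, SE 0.25, edgeR adjusted p = 0.0397), the only call among 13 genes of that cycle (median 0.41). At an unadjusted p under 0.05 the exchange list held 4 higher and 0 lower of its 7 genes and the cycle 6 and 1 of its 13, beside 10.4% higher and 12.2% lower over all genes. Both calls were lost without wild-type replicate 1 or 3 or knockout replicate 1 or 4 (adjusted p from 0.105 to 0.137 for Slc25a5 and 0.102 to 0.164 for Idh3g) and with length and GC content corrected (0.119 and 0.0706), and that of Idh3g also without wild-type replicate 2 (0.0541). None of 44 assembly factors (median 0.25), 12 genes of electron carriers and quinone synthesis (median 0.52) or 15 regulators (median -0.14) was called, and at an unadjusted p under 0.05 these lists held 7 higher and 1 lower, 6 and 0, and 1 and 0, beside 10.4% higher and 12.2% lower over all genes. The smallest p among the assembly factors was that of Coa6 (0.54), among the carriers and quinone genes that of Coq10b (1.09), and among the regulators that of Gabpb1, a subunit of the GABP factor that reads ETS motifs (0.67). In pools no gene of any of these 5 lists was called by edgeR, where no gene at all was, and Slc25a5 and Idh3g had log2 changes of -0.19 and -0.27. The complex III gene Cyc1, outside the name rule, had a log2 change of 0.36 in single embryos and -0.32 in pools.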

How the data were processed

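The authors deposited whole-number read counts per gene for 10 libraries, without normalization. The submitters' processing notes name STAR 2.7.6a, RSEM 1.3.1, fastp 0.21.0 and the build mm10, but not which of them made the counts; annotation, strand setting and treatment of multiply matching reads are not stated there. Tests used edgeR 4.0.16 in R 4.3.3 (filterByExpr, TMM, quasi-likelihood F test, two-sided, Benjamini-Hochberg at 5% over all genes tested), each set fitted by itself and their difference over all 10 libraries; log2 changes carry a prior count of 0.125. CPM used library totals. Lengths, overlaps, coordinates and hydrophobic segments came from GENCODE M21 (GRCm38), promoters from RefSeq. The fit was tested on simulated data. Alternatives were other scalings, no filter, DESeq2 1.42.0, limma-voom 3.58.1, all 10 libraries in 1 fit, the replicate number as a block, each library left out, and a length and GC correction. Named members are those called, the smallest p per complex and direction, the most abundant per kilobase, isoform pairs and genes near 0; other genes are those called and the smallest p per list. Others named were chosen after their values were seen. The values of 1 member are not reported here. Members and lists were chosen with earlier results of these data known.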

Additional observations from a re-analysis of the deposited data

How the results depend on the processing

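Against 1 member called higher and 0 lower in single embryos, upper-quartile scaling called 3 higher (over all genes 301 higher and 423 lower of 13830), no filter 4 higher and 3 lower (728 and 987 of 23012), DESeq2 11 and 3 (951 and 1006 of 10334), limma-voom 3 and 1 (213 and 544 of 13830), all 10 libraries in 1 fit 8 and 3 (791 and 876 of 15878), the length and GC correction 0 and 2 (92 and 357 of 13830), and leaving out a library 0 to 6 higher and 0 to 3 lower. With the replicate number as a block, only replicates 1 and 3 of each single-embryo group were kept, as these numbers occur in both. In that smaller fit 16 higher and 22 lower of 14183 genes were called, with 0 members called higher (Uqcrc2 1.08, edgeR adjusted p = 0.281). Slc25a5 and Idh3g were not called either (0.321 and 0.297). The block and the loss of libraries cannot be told apart here. Same-numbered libraries correlated at -0.001 and -0.061 in single embryos and 0.114 in pools, so the numbers were not taken to pair them. With 2 pools per group the other pairing must give the mirror value, -0.114, so the pools cannot decide this. With the block, edgeR called 29 higher and 10 lower of 16259 genes in pools, against 0 and 0 without it. There Uqcrc2 stood at -0.23 (SE 0.09, edgeR adjusted p = 0.27). In single embryos the call for Uqcrc2 was also lost under the length and GC correction (0.72, edgeR adjusted p = 0.082). Over all genes, the calls in single embryos were 602 higher and 714 lower without knockout replicate 3 and 131 and 389 without wild-type replicate 2, and fell from 605 to 41 or 1 when wild-type replicate 1 or 3 was left out, and to 66 or 1 when knockout replicate 1 or 4 was. In pools a fit with a library left out has 1 library in a group, so its calls are not given. Over the alternatives the log2 change in pools ran from 0.45 to 1.03 for Cox6b2 and from 0.44 to 1.73 for Cox8c. For the difference between the sets, no filter called 1 member, beside 348 higher and 200 lower of 26290 genes. DESeq2 called 2 members, Ndufs7 and Uqcrc2, beside 319 higher and 225 lower of 4795 genes. The medians of the complex I core, complex III core, F1, peripheral stalk and complex IV broad subunits in single embryos kept their sign in all 14 alternatives. On TMM-scaled library sizes the mean summed CPM was 12480 for complex I and 4512 for complex III in control pools, and 4222 for complex III and 8896 for complex V in knockout pools. Over all 82 members, up to 23 changed sign in pools (without knockout pool 2; 19 under the length and GC correction) and up to 12 in single embryos (under that correction). Among the members that the rule names in a set, the values that changed sign were Atp5k in pools (-0.19), Uqcrq in pools (-0.29) and Cox5a in the difference between sets (-0.22) under the length and GC correction, Cox6a1 in pools without control pool 2 (0.01; -0.27 to 0.01 with each pool left out), and Uqcrq in pools without control pool 2 (-0.00) and knockout pool 2 (-0.01; up to 0.06 with the others left out). The causes of these shifts were not tested. The filter on low counts kept only Cox6a2, Cox8b and Ndufa4l2 out of the tests, and a part of depth in this was not tested. Reads shared with copies leave Atp5g1, Atp5g2, Atp5l and Cox7c uncertain at any depth. Of all members 36 share a 75-base window with another gene, among them Atp5h (40.3%) and Ndufs3 (28.2%). Another gene of the table overlaps 27 members, among them Ndufs3, Atp5a1, Ndufa9 and Ndufb2. Their values carry the same limit as that of Uqcrc2.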
